A study of Mus musculus with 8 samples.

Results

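The comparison concerned mouse embryonic fibroblasts in which Daxx had been put back and that were labelled DaxxB, set against the same kind of cells that had received a vector. Members were chosen by sample title: 2 DaxxB arrays and 4 vector arrays, of 8 arrays in the series. All 6 came from Daxx knockout cells of the FVB/N background, so the knockout is shared by both groups and the groups differ in what the cells were complemented with. The cells were grown in DMEM with fetal bovine serum and antibiotics, seeded, left for a day and harvested, and total RNA was labelled for Affymetrix mouse gene arrays. The submitters sought target genes that lie downstream of Daxx. The labels do not say what the letter B stands for, how Daxx was expressed, whether DaxxB is 1 clone, or whether each array stands for a culture of its own. A p-value here thus rests on the spread between arrays, and that spread may be technical.

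Daxx is a histone chaperone that, with its partner Atrx, deposits the histone variant H3.3 at heterochromatin, telomeres and silenced repeats. It is recruited to PML nuclear bodies and binds sumoylated transcription factors, whose activity it mostly lowers. In fibroblasts and other cells it has also been studied in apoptosis and in interferon signalling. Embryonic fibroblasts are mesenchymal cells that make extracellular matrix, growth factors and chemokines and that keep the Hox code of the body region they came from.

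Values are log2 signals, and changes are DaxxB minus vector on the log2 scale with a standard error (SE). The test was limma with Benjamini-Hochberg adjustment over 19938 genes, and a gene was called at an adjusted p below 0.05. Vector replicate 2 stood apart from the other arrays. Its interquartile range of signal was 2.79 against 3.31 to 3.39 in the other 5 arrays, and its median signal over 1027 olfactory receptor genes, taken as a guide to the background, was 5.21 against 4.65 to 4.70. Results are therefore given on all 6 arrays and again on the 5 arrays without vector replicate 2. The 2 DaxxB arrays differed by a median of 0.0641 across genes, and the 3 pairs of the remaining vector arrays by 0.0514 to 0.0671. Of 14 fibroblast markers measured, 12 exceeded the 95th percentile of the olfactory receptor genes in every array, including Col1a1, Vim and Thy1, while Fap and Lum did so in none. The adipocyte markers had 0 of 8 above that level in every array, and the epithelial, endothelial, blood, muscle, skeletal, neural and pluripotency lists had 2 to 5 each. Ptprc, Pecam1, Cdh5, Epcam, Cdh1 and Pou5f1 exceeded it in no array. Among those lists of other cell types, 1 marker was called on 6 arrays, Sox2, a transcription factor of stem and neural progenitor cells, which fell by 0.67 (SE 0.10). On 5 arrays Sox2 was again lower, and higher calls numbered 2 blood, 2 smooth muscle, 2 neural, 1 cartilage and bone and 1 pluripotency marker. Their part in the results was not tested.

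The Daxx probe set did not separate the groups. It read 7.34, 6.85, 7.27 and 7.16 in vector replicates 1 to 4 and 7.46 and 7.23 in DaxxB replicates 1 and 2, so the groups overlapped. The difference was 0.19 (95% interval -0.18 to 0.56; limma adjusted p = 0.799), and a two-sided exact permutation test over arrays returned p = 0.4, in a design that can reach 0.133 at best. Without vector replicate 2 the change was 0.09 (exact permutation p = 0.6, at best 0.2). The mean vector signal lay above 99.2% of the olfactory receptor genes. The sources used here do not give the position of the probes within Daxx, neither against the deletion nor against the restored sequence, so this probe set does not check the labels and the directions below rest on them.

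On 6 arrays 278 genes were called, 1.39% of all genes, of which 64 were higher in DaxxB (0.321%) and 214 lower (1.07%). An unadjusted p below 0.05 in limma was found in 2406 of the 19938 genes. At least 2-fold changes were found in 58 genes (0.291%), 7 higher and 51 lower. In all 278 genes both DaxxB values lay beyond all 4 vector values, a separation that held for 27.3% of all genes. Without vector replicate 2 limma called 3786 genes (19.0%), with 1995 higher (10.0%) and 1791 lower (8.98%), and 73 changed at least 2-fold. All 278 genes were among the 3786 with the same direction, but the split moved from 23% higher to 52.7% higher. Small differences made up most of the larger set: 89.4% of its genes changed by less than 0.5, and its median absolute change was 0.27 against 0.68 in the 278 genes. These shares of all genes are the background to the counts of list members below. The lists were chosen with earlier results of these data known.

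The number of called genes rested on single arrays. Leaving out vector replicate 1 left 55, vector replicate 3 left 57 and vector replicate 4 left 73, while leaving out DaxxB replicate 1 left 3 and DaxxB replicate 2 left 0. Those last 2 fits judge a lone DaxxB array by the spread among the vector arrays. Once vector replicate 2 was also left out, limma called 1748 genes without DaxxB replicate 1 and 2177 without DaxxB replicate 2, with all 278 among them in each case. The 278 changes had the same sign in each of these fits.

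**Figure D1:**
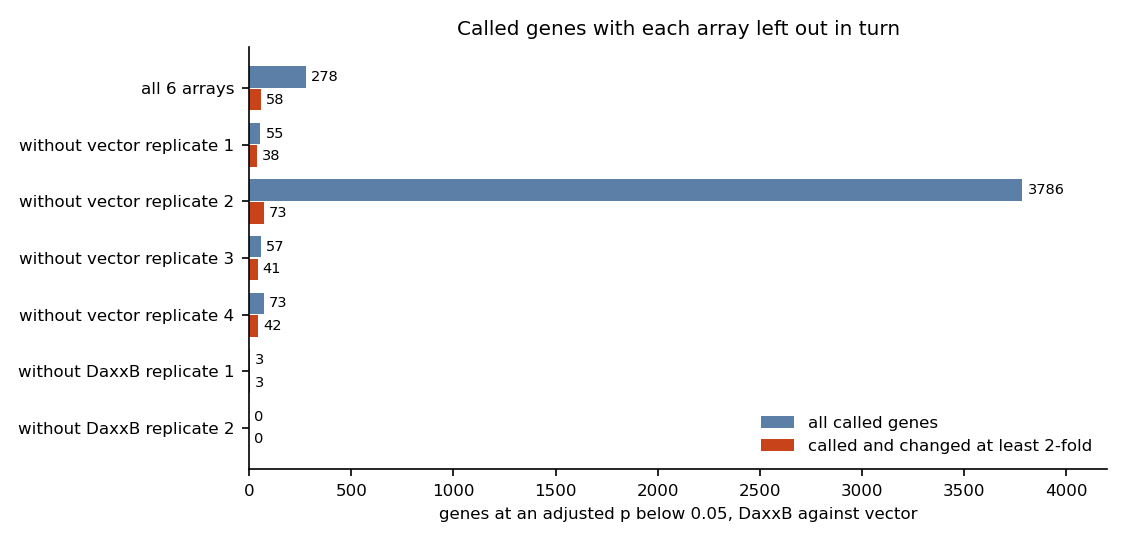
Genes called in limma at an adjusted p below 0.05 (blue) and those that also changed at least 2-fold (red), with all 6 arrays and with each array left out in turn; the x axis counts genes. The count was 278 on all arrays, rose to 3786 without vector replicate 2 and fell to 3 and 0 without a DaxxB array, while the 2-fold count stayed between 38 and 73 whichever vector array was left out.

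Sfrp1, a secreted Wnt antagonist, read 12.20, 11.94, 12.16 and 12.12 in the vector arrays and 9.04 and 9.03 in the DaxxB arrays, and fell by 3.07 (SE 0.09, 8.4-fold, adjusted p = 0.000561). It was the largest change among called genes, and both DaxxB arrays stood more than 2 units below every vector array. Cd34, a surface glycoprotein of stromal and blood progenitors, read 11.42, 11.30, 11.39 and 11.39 against 9.47 and 9.45 and fell 3.76-fold (adjusted p = 0.00073). Grem1, an extracellular antagonist of bone morphogenetic proteins, read 9.96, 9.83, 9.83 and 9.92 against 8.10 and 7.88 and fell 3.71-fold (adjusted p = 0.00225). Mme, the membrane peptidase neprilysin, read 7.75, 7.43, 7.82 and 8.09 against 5.97 and 5.85 and fell 3.65-fold (adjusted p = 0.00904). In each of these 4 genes the range within the vector arrays was smaller than the gap between the groups.

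A further 11 genes completed the 15 lowest. Gpc4, a cell-surface heparan sulfate proteoglycan, fell by 1.75, and the glutamate receptor subunit gene Gria3 fell by 1.68. Rspo2, a secreted enhancer of Wnt signalling, fell by 1.57 and Svep1, a large matrix protein, by 1.54. Cemip, which takes part in the breakdown of hyaluronan, fell by 1.53, Fat4, an atypical cadherin, by 1.52 and Saa3, an acute phase serum amyloid, by 1.51. The Ras-like gene Rasl11a fell by 1.49, Npr3, the clearance receptor of natriuretic peptides, by 1.48, Fbln5, an elastic fibre protein, by 1.43 and Cxcl12, a chemokine that holds CXCR4-bearing cells in place, by 1.40. Their SEs ran from 0.07 to 0.22. The widest belonged to Svep1, with 8.86 for vector replicate 2 beside 9.53 to 9.57 for the rest of the vector arrays.

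The increases were smaller. Gsta4, a transferase that joins glutathione to products of lipid peroxidation, read 9.09, 8.97, 9.11 and 9.22 in vector and 10.39 and 10.41 in DaxxB, and rose by 1.30 (SE 0.09, 2.47-fold, adjusted p = 0.00363). Gfra2, a co-receptor for neurturin, read 8.96, 8.71, 8.92 and 8.94 against 10.11 and 10.04 and rose 2.28-fold (adjusted p = 0.00455). Both DaxxB arrays exceeded every vector array by over 1 unit in these 2 genes. Parvb, an adaptor of integrin adhesions, rose by 1.08, Tagln, which binds actin in smooth muscle, by 1.07, Pdgfb, a platelet-derived growth factor chain, by 1.06, Mpp1, a membrane scaffold protein, by 1.00 and Pcolce2, an enhancer of procollagen processing, by 1.00. Of the 8 that completed the 15 highest, Plin2, a lipid droplet coat protein, rose by 0.93, Ccbe1, a secreted factor of lymphatic growth, by 0.93 and Tnfaip2, a target of tumour necrosis factor, by 0.92. Tgm2, the tissue transglutaminase, rose by 0.91, Sh3bgrl2 by 0.89, Arhgdib by 0.88, Armcx2 by 0.86 and Trp53i11 by 0.86. On 5 arrays the changes of these 15 ran from 0.78 (Arhgdib) to 1.26 (Gsta4).

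**Figure D2:**
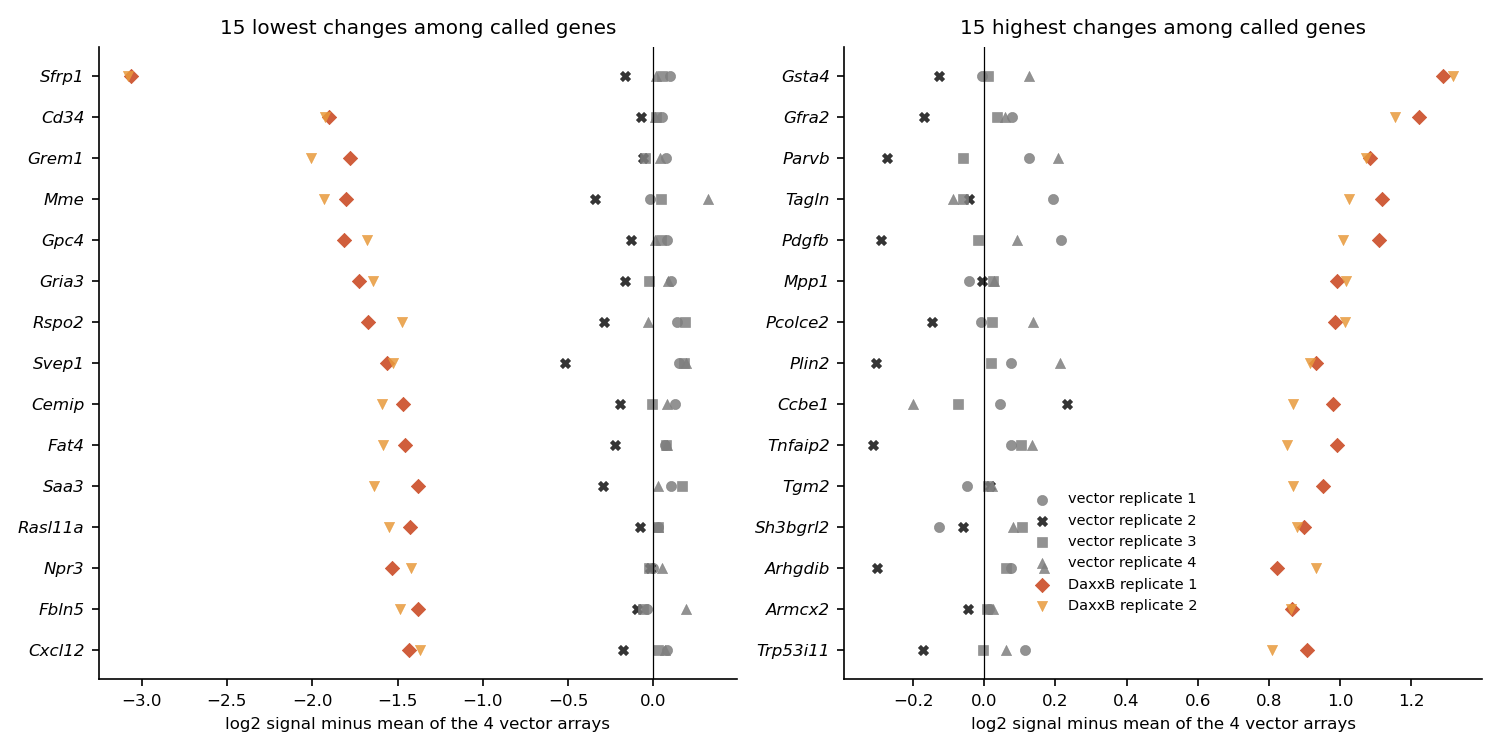
Log2 signal of each array minus the mean of the 4 vector arrays, for the 15 called genes with the lowest change (left) and the 15 with the highest (right); grey and black marks are vector arrays, with vector replicate 2 in black, and red and orange marks are the DaxxB arrays. Sfrp1 stands about 3 units below the vector arrays. The rule that chose the 30 genes required both DaxxB marks to lie beyond every vector mark.

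The Wnt list, chosen with Sfrp1 in view, held called members of 3 roles, all lower. Wnt proteins bind Frizzled receptors, Sfrp proteins intercept them outside the cell, and R-spondins keep the receptors at the surface by holding off the ligases Rnf43 and Znrf3. Of its 40 measured genes 5 passed (12.5%), all lower, beside 1.07% of all genes. The other 35 were not called, and the list median was -0.0967 beside -0.0058 over all genes. Among 12 secreted antagonists only Sfrp1 was called on 6 arrays. Among 12 ligands and activators Rspo2 was called, and read 7.73, 7.30, 7.78 and 7.57 against 5.93 and 6.12. Wnt5a, a ligand of the non-canonical branch, read 7.54, 6.92, 7.44 and 7.53 against 6.35 and 6.27. Its difference of -1.05 missed the threshold on 6 arrays (adjusted p = 0.0709) and passed on 5 (-1.19, adjusted p = 2.2e-06). Of 16 receptors and targets, Rnf43 fell 1.82-fold, Fzd4, a Frizzled receptor, 1.77-fold, and Nkd2, a feedback inhibitor, 1.44-fold. On 5 arrays 14 of the 40 were lower (35%) and 7 higher (17.5%), beside 8.98% and 10.0% of all genes. The median was 0.0221, of opposite sign to that on 6 arrays.

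In the BMP pathway 2 of 9 genes listed as ligands and 2 of 9 antagonists fell on 6 arrays and 0 rose. Across all 31 measured members 12.9% fell, beside 1.07% of all genes. Bmp4, a ligand of mesenchyme, read 12.08, 11.88, 11.98 and 11.99 in vector and 10.79 and 10.73 in DaxxB, and fell by 1.22 (SE 0.08, 2.33-fold, adjusted p = 0.00363). Bmp2, its close relative, read 6.40, 5.89, 6.30 and 6.07 against 5.21 and 5.04 and fell 2.06-fold (adjusted p = 0.04). The vector and DaxxB values did not overlap in either gene. Among 9 antagonists, which trap BMPs outside the cell, Grem1 fell as above and Chrdl1 fell 1.52-fold. None of 13 receptors and targets was called by limma on 6 arrays, 5 having an unadjusted p below 0.05. On 5 arrays 2 of the genes listed as ligands were lower and 2 higher, Bmp7 and Bmp1. Bmp1 is a metalloprotease and not a ligand. Of the antagonists 4 were lower and 1 higher, and of the receptors and targets 4 were lower and 1 higher. Across the 31 members 32.3% were lower and 12.9% higher on 5 arrays, beside 8.98% and 10.0% of all genes.

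Growth factors and their receptors moved in both directions. In the PDGF family, which drives the growth of mesenchymal cells, Pdgfa rose 1.54-fold and Pdgfb 2.09-fold. Pdgfd, a ligand of the beta receptor, read 7.38, 7.33, 7.48 and 7.58 against 6.35 and 6.34 and fell 2.14-fold (adjusted p = 0.00529). Pdgfrb, that receptor, read 10.33, 10.05, 10.29 and 10.26 against 9.69 and 9.57, with an adjusted p of 0.0529 on 6 arrays and 7.28e-05 on 5. On 5 arrays all 7 measured members of the family were called, 3 higher and 4 lower, where 19.0% of all genes were called. Igf1, an insulin-like growth factor, read 8.73, 8.75, 8.65 and 8.85 against 7.60 and 7.58 and fell 2.23-fold, and Igf2 fell 1.78-fold. Igfbp7, a binding protein of that axis, rose 1.67-fold. Fgfr2, a fibroblast growth factor receptor, fell 1.80-fold.

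The fibroblast growth factors show how far vector replicate 2 bears on a call. Fgf10, a mesenchymal ligand of Fgfr2, read 8.54, 7.57, 8.54 and 8.40 in vector and 6.86 and 6.76 in DaxxB. Its difference of -1.45 had an adjusted p of 0.0901 on 6 arrays, and that on 5 arrays was -1.68 with an adjusted p of 8.27e-07. Fgf7, the keratinocyte growth factor, differed by -0.45 (adjusted p = 0.0517). Of 16 other factors and receptors, Gfra2 and Gdnf, a ligand of the same receptor family (1.45-fold), rose, and Kitl, the stem cell factor (1.85-fold), and Vegfd, a lymphatic growth factor (1.83-fold), fell. Across all 43 measured growth factors and receptors 5 rose (11.6%) and 6 fell (14%) on 6 arrays, beside 0.321% and 1.07% of all genes. On 5 arrays 11 rose (25.6%) and 15 fell (34.9%), beside 10.0% and 8.98%. The median was -0.0443 on 6 arrays and 0.0292 on 5.

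Most interferon-stimulated genes had lower values in DaxxB, by small amounts. Type I interferon acts through a transcription factor complex that includes Irf9 and binds a paired GAAA element in the promoters of its targets. Of 34 measured members 31 had a change below 0, as did 51.6% of all genes, and the median was -0.27. On 6 arrays 2 fell and none of the other 32 passed. On 5 arrays 21 fell, which is 61.8% of the list beside 8.98% of all genes, and 0 rose. Gbp7, a guanylate-binding GTPase, read 8.74, 8.34, 8.63 and 8.60 in vector and 7.57 and 7.52 in DaxxB, and fell by 1.03 (SE 0.12, 2.04-fold, adjusted p = 0.0181). Rtp4, an inhibitor of viral replication, read 6.71, 6.75, 6.79 and 6.95 against 6.26 and 6.20 and fell 1.49-fold (adjusted p = 0.046). In both genes the 2 groups of arrays did not overlap.

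A further 5 members are given that passed on 5 arrays but not on 6. Ifit1, which binds foreign RNA, read 7.53, 6.97, 7.56 and 7.66 against 6.25 and 6.38, a difference of -1.12 on 6 arrays (adjusted p = 0.0709) and -1.27 on 5 (adjusted p = 3.05e-06). Ifitm3, which blocks viral entry, read 12.66, 12.86, 12.75 and 12.70 against 12.25 and 12.32 (adjusted p = 0.0622 on 6 arrays). Irgm1, a GTPase of the defence against intracellular pathogens, differed by -0.45, Isg20, an exonuclease, by -0.36, and Irf9, the DNA-binding subunit of the interferon complex, by -0.48. The mean over the 25 antiviral effectors was 7.67 to 7.75 in the vector arrays and 7.40 to 7.41 in the DaxxB arrays, with vector replicate 2 the lowest vector array. Mx1, Mx2, Rsad2 and Oas2, which belong to the same list, were called on neither set of arrays. Fewer cells with a gene active and less RNA in each cell cannot be told apart in bulk samples such as these.

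Promoter sequences of 3 members are shown because they carry the element that the interferon complex binds. The letters searched were GAAANNGAAA on both strands, from 250 bases before to 50 after the gene start, in RefSeq sequences of GRCm38.p6. Windows are written 5′ to 3′ on the strand of the gene, with each match in capitals, and a match on the opposite strand reads TTTC. The 2 matches of Irgm1 share a GAAA.
Ifit1 (chr19:34640770-34640828, + strand): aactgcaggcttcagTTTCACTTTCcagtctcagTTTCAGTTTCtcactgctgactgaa
Gbp7 (chr3:142530268-142530307, + strand): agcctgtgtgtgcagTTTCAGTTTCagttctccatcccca
Irgm1 (chr11:48871420-48871465, - strand): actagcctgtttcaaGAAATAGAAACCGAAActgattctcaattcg

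Of 34 list members, 24 had a promoter in the sequence table, and 14 of these (58.3%) held the letters, as did 3.99% of 27025 genes with a promoter there. On 5 arrays 9 of the 14 members with the letters and 7 of the 10 without them were lower in DaxxB. Among the genes called lower on 6 arrays, 144 had a promoter in the table and 12 held the letters (8.33%). A match describes these letters only.

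**Figure D3:**
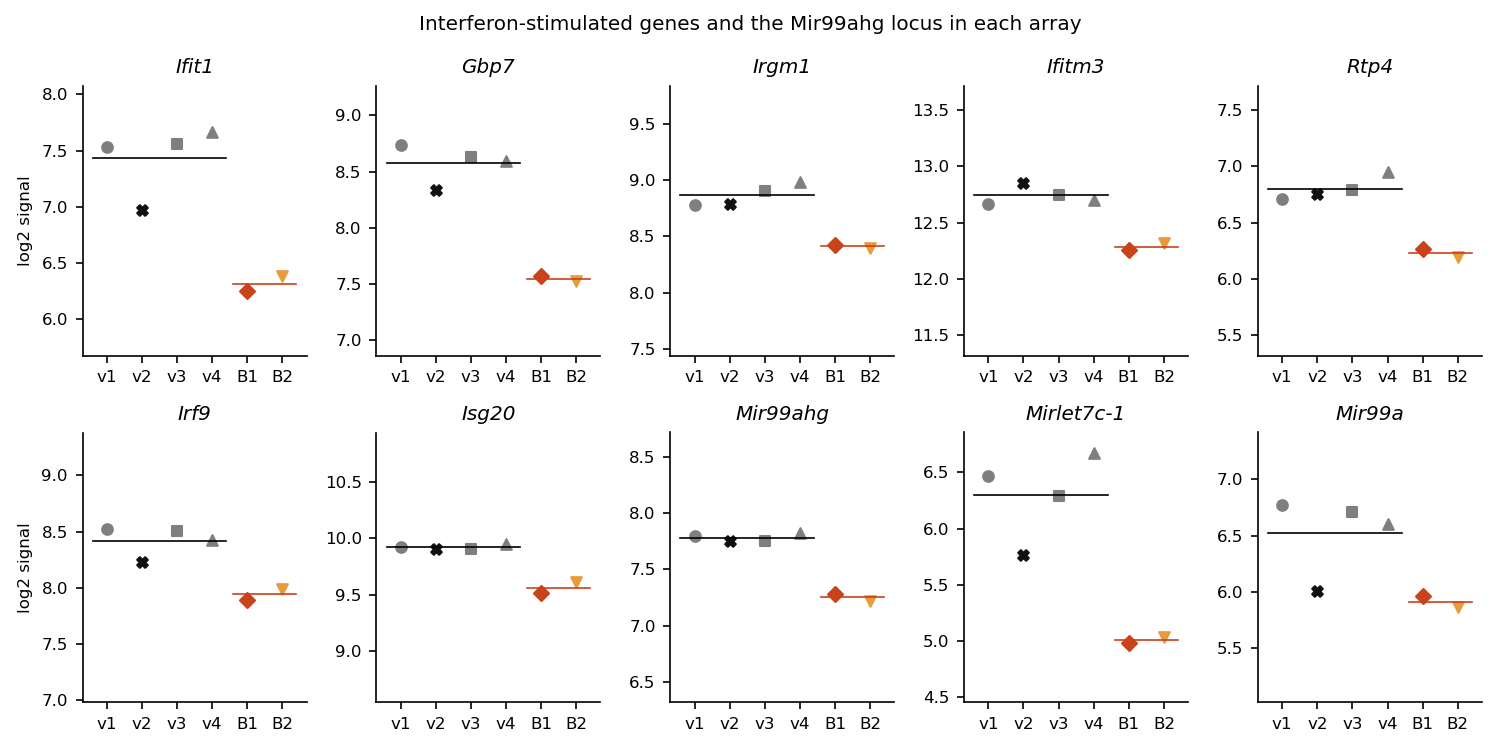
Log2 signal of 7 interferon-stimulated genes and of 3 genes of the Mir99ahg locus in each array (v1 to v4, vector replicates 1 to 4; B1 and B2, DaxxB replicates 1 and 2); lines mark group means and all panels have the same span. In each panel both DaxxB marks lie below every vector mark, and vector replicate 2 is the lowest vector array in Ifit1, Gbp7, Irf9, Isg20, Mir99ahg, Mirlet7c-1 and Mir99a.

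Class I antigen presentation genes, many of which also answer to interferon, gave 0 called members of 16 in limma on 6 arrays, 5 with an unadjusted p below 0.05, and 6 lower and 1 higher on 5 arrays. The transporter gene Tap1 differed by -0.34 and the immunoproteasome gene Psmb8 by -0.36, while the nonclassical class I gene H2-M3 differed by 0.62 (adjusted p = 0.0737). Among inflammatory genes, Cxcl12 read 10.71, 10.46, 10.66 and 10.70 against 9.20 and 9.26, and Ccl5, a T cell chemokine, fell 1.40-fold. These 2 were the called members of 14 chemokines. Cxcl5, a neutrophil chemokine, differed by -0.94 (adjusted p = 0.0762; -1.08 and 1.13e-05 on 5 arrays). Of 16 cytokines and receptors Osmr, the oncostatin M receptor, fell 1.54-fold, while Lifr, its relative for leukemia inhibitory factor, differed by -0.81 (adjusted p = 0.129) and Il6 by -0.43 (adjusted p = 0.0809).

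Of 15 acute phase, complement and adhesion genes 3 fell and 0 rose on 6 arrays, while on 5 arrays 5 were lower and 4 higher. Saa3 read 9.10, 8.70, 9.16 and 9.03 against 7.62 and 7.36. C1s1, a complement protease, fell 1.91-fold, and Vcam1, an adhesion molecule for leukocytes, fell 1.69-fold, from 11.45 to 11.56 in vector to 10.77 and 10.74. Of 12 genes listed as NF-kB subunits and feedback, the called member on 6 arrays was Tnfaip2, a target gene that is neither. On 5 arrays 5 of the 12 were higher and 0 lower.

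Mesenchymal transcription factors included 7 called members of 29 (24.1%), all lower, beside 1.07% of all genes. The list median was -0.16. Ebf3, an early B cell factor of connective tissue, read 8.47, 8.32, 8.43 and 8.52 in vector and 7.14 and 7.14 in DaxxB, and fell by 1.30 (SE 0.08, 2.45-fold, adjusted p = 0.00356). Prrx1, a homeobox factor of limb and craniofacial mesenchyme, read 12.07, 12.00, 12.08 and 12.16 against 11.08 and 11.05 and fell 2.02-fold (adjusted p = 0.00367). Osr1, a factor of intermediate and limb mesoderm, fell 1.86-fold, from 11.60 to 11.67 in vector to 10.82 and 10.68. Snai2, a zinc-finger repressor of epithelial genes, fell 1.63-fold. The remaining 3, named after their values were seen, were Tbx15 (-0.65), Foxf2 (-0.53) and Twist2 (-0.39). On 5 arrays 12 of the 29 were lower (41.4%) and 4 higher (13.8%), beside 8.98% and 10.0% of all genes. Among 18 surface molecules of stromal progenitors Cd34, Mme and Cdh11 were called, and Cdh11, a cadherin of mesenchyme, read 10.94, 10.80, 10.91 and 10.96 against 9.68 and 9.55. That list had a median of -0.0419 on 6 arrays and 0.0427 on 5.

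Hox genes, which set the identity of body regions, had called members in 2 of the 4 clusters. Of 37 measured genes 5 passed (13.5%), all lower, beside 1.07% of all genes. On 5 arrays 15 fell (40.5%) and 3 rose (8.11%), beside 8.98% and 10.0% of all genes. In the Hoxb cluster 4 of 9 fell: Hoxb13 (1.91-fold), Hoxb5 (1.51-fold), Hoxb6 (1.5-fold) and Hoxb9 (1.41-fold). Hoxb13 read 8.12, 7.79, 8.15 and 8.03 against 7.06 and 7.11. All 9 Hoxc genes had a change below 0, with a median of -0.43. None of them passed in limma on 6 arrays, although 6 had an unadjusted p below 0.05, and 7 passed on 5 arrays. Hoxc8 read 9.74, 9.65, 9.46 and 9.56 against 9.07 and 8.91 (adjusted p = 0.0534), and Hoxc10 read 6.11, 6.44, 6.40 and 6.40 against 5.80 and 5.66 (adjusted p = 0.0761). Of 10 Hoxa genes Hoxa11 fell 1.67-fold. The 9 Hoxd genes had a median of -0.0328 and a mean signal of 5.74 to 6.17 in the vector arrays, nearer to the olfactory receptor level than the other clusters.

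**Figure D4:**
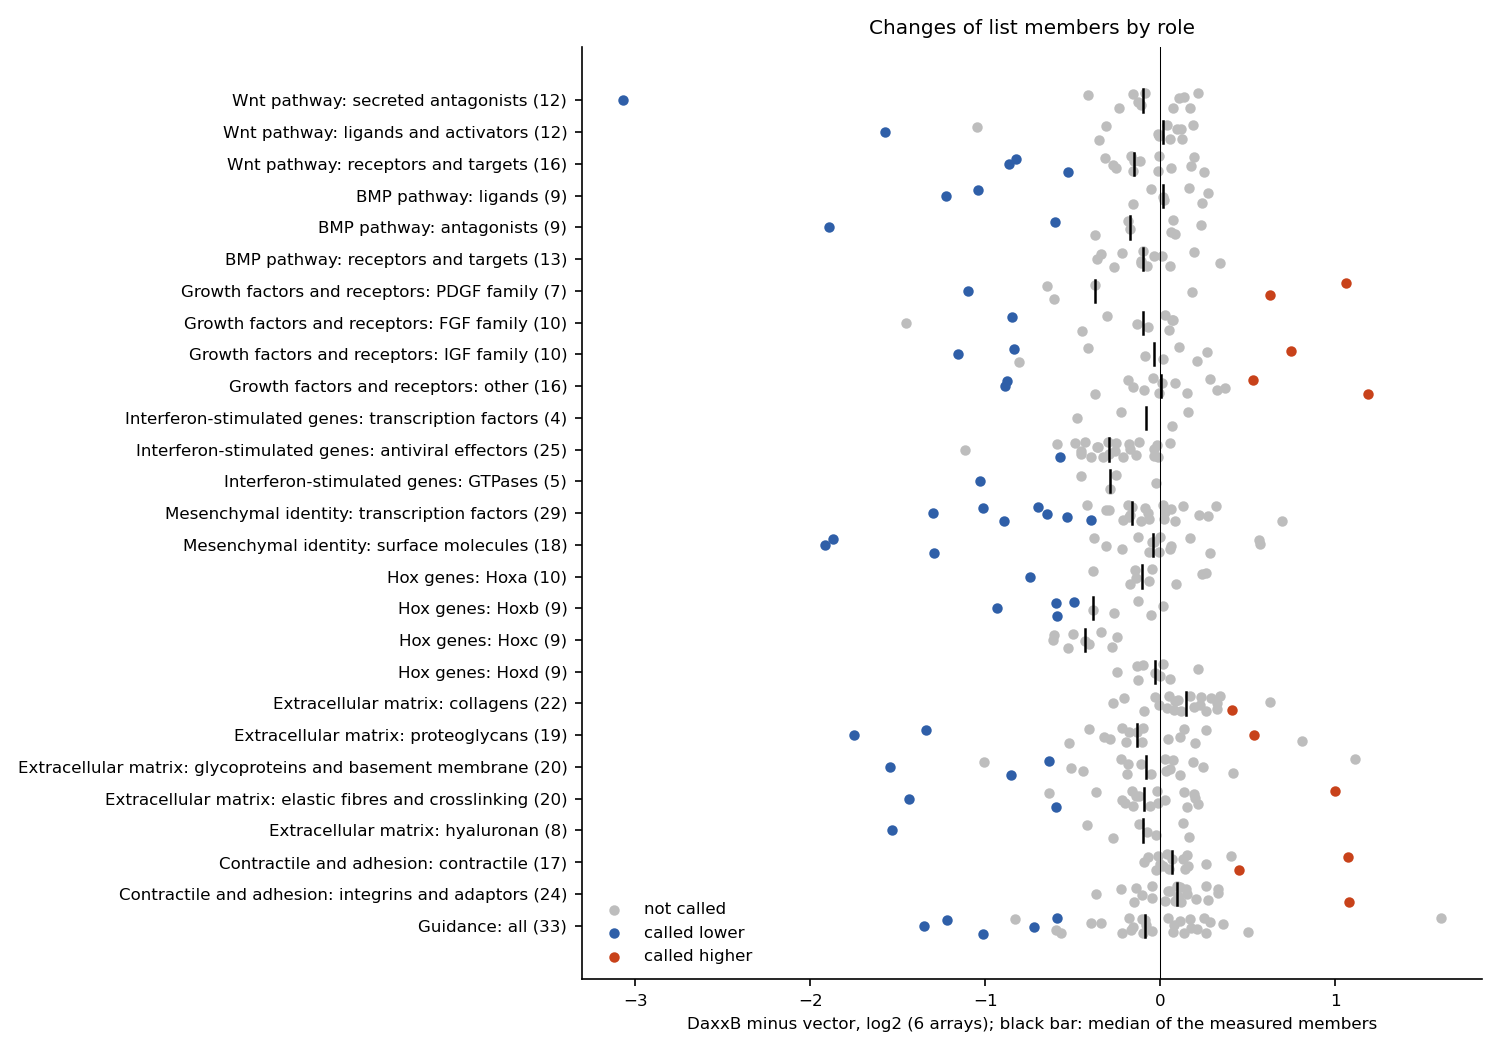
DaxxB minus vector in log2 on 6 arrays for each measured member of 27 roles, with the number of members in brackets; blue and red points are genes called lower and higher, grey points were not called, and black bars are medians. Sfrp1 is the lowest point, at -3.07, and the antiviral effectors, Hoxb and Hoxc members lie mostly below 0 while the collagens lie mostly above.

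Of 89 extracellular matrix genes 3 rose (3.37%) and 8 fell (8.99%) on 6 arrays, beside 0.321% and 1.07% of all genes. On 5 arrays 16 were higher (18%) and 30 lower (33.7%), beside 10.0% and 8.98%. Of 22 collagen genes 17 had a change above 0 (median 0.14), although Col1a2, a chain of type I collagen, was the called member, with 8.77, 8.79, 8.73 and 8.81 in vector and 9.20 and 9.17 in DaxxB (1.33-fold, adjusted p = 0.0407). On 5 arrays 9 collagens were higher and 2 lower, among them Col6a3 at 0.29 and Col18a1 at 0.56. Dcn, the proteoglycan decorin that coats collagen fibrils, read 10.67, 10.39, 10.67 and 10.61 against 9.22 and 9.28 and fell 2.52-fold (adjusted p = 0.00403). Of 19 proteoglycans Gpc4 also fell and Sdc3, a syndecan, rose 1.45-fold. On 5 arrays 10 proteoglycans were lower and 2 higher.

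Among 20 glycoproteins and basement membrane genes Svep1 and the thrombospondins Thbs1 (1.81-fold) and Thbs2 (1.55-fold) fell. Nid2, a nidogen of basement membranes, read 8.05, 7.33, 7.86 and 8.12 against 6.86 and 6.80, and passed on 5 arrays only (-1.18). Fbln5 fell 2.70-fold and Lox, the crosslinking lysyl oxidase, fell 1.51-fold, while Pcolce2 rose, in a list of 20 elastic fibre and crosslinking genes. Cemip was the called member of 8 hyaluronan genes. Of 19 proteases the aggrecanases Adamts5 (2.43-fold) and Adamts1 (2.36-fold) fell and Plau, the urokinase plasminogen activator, rose 1.53-fold. Adamts5 read 9.52, 9.21, 9.56 and 9.58 against 8.22 and 8.16. Of 6 inhibitors Timp3 fell 1.39-fold, and Timp1 differed by 0.54 (adjusted p = 0.0742).

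Contractile genes rose where they were called. Tagln read 7.25, 7.01, 6.99 and 6.97 in vector and 8.17 and 8.08 in DaxxB, and Acta2, smooth muscle actin, read 11.59, 11.54, 11.58 and 11.58 against 12.03 and 12.01 (1.37-fold, adjusted p = 0.0291). Of 17 members these 2 rose (11.8%, beside 0.321% of all genes) and 0 fell on 6 arrays. On 5 arrays 6 rose (35.3%, beside 10.0% of all genes) and 0 fell. Among 24 integrins and adaptors Parvb was called on 6 arrays, and 6 were higher and 3 lower on 5.

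Guidance genes, which steer axons and migrating cells, held 5 called members of 33 on 6 arrays, all lower (median -0.0866). That share is 15.2%, beside 1.07% of all genes. On 5 arrays 12 were lower (36.4%) and 8 higher (24.2%), beside 8.98% and 10.0% of all genes, with a median of 0.0014. Sema5a, a semaphorin, read 9.08, 8.84, 9.10 and 9.12 against 7.75 and 7.62 and fell 2.55-fold. Plxna2, a plexin receptor, fell 2.33-fold, Slit2, a repellent ligand of Robo receptors, 2.02-fold, Efna5, an ephrin, 1.65-fold, and Sema3a, named after its values were seen, by 0.59. Plxdc2, a plexin domain protein, also named after its values were seen, had the highest change of the list. It read 8.18, 7.06, 8.10 and 8.13 in vector and 9.47 and 9.47 in DaxxB. Its difference of 1.60 did not pass on 6 arrays (adjusted p = 0.101), and that of 1.34 on 5 arrays did (adjusted p = 8.27e-07).

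Partners of Daxx, p53 targets and apoptosis genes gave no calls on 6 arrays, where 1.39% of all genes were called. Of all 19938 genes 2406 had an unadjusted p below 0.05 in limma on 6 arrays. Of 25 measured H3.3 chaperone and PML body genes limma called 0, 1 had an unadjusted p below 0.05, and 2 were lower on 5 arrays. Pml, the scaffold of the bodies, read 9.65, 9.51, 9.62 and 9.66 against 9.56 and 9.38, a difference of -0.14 (adjusted p = 0.638). Asf1b, a histone chaperone of replication, differed by -0.17. Of 20 p53 targets 0 passed in limma on 6 arrays, 7 having an unadjusted p below 0.05, and 5 were higher and 4 lower on 5 arrays. The list median was 0.20, with 13 genes above 0 and 7 below. Trp53inp1 had the highest change, 0.60 on 6 arrays (limma adjusted p = 0.219) and 0.47 on 5 (limma adjusted p = 0.000759). Mdm2, the ligase of p53, differed by -0.25 and Ccng1, a cyclin G, by 0.25. Of 27 apoptosis genes 0 passed in limma on 6 arrays, with 5 at an unadjusted p below 0.05, and 6 were higher and 3 lower on 5 arrays. Casp4, an inflammatory caspase, differed by -0.79 (adjusted p = 0.0997) and Bcl2, a survival factor, by 0.33.

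Cell cycle, glycolysis and unfolded protein response genes gave no calls on 6 arrays. Over all genes 1.39% were called there, and 2406 of 19938 had an unadjusted p below 0.05 in limma. Of 43 cell cycle and replication genes 0 passed in limma on 6 arrays, 9 had an unadjusted p below 0.05, and 10 were lower and 2 higher on 5 arrays. Mki67, a marker of cycling cells, read 12.12, 12.05, 12.07 and 12.07 against 11.89 and 11.80, and Rrm1, a subunit of ribonucleotide reductase, read 11.91, 11.92, 11.93 and 11.90 against 11.61 and 11.61. Of 24 glycolysis and hypoxia genes 0 passed on 6 arrays and 8 had an unadjusted p below 0.05. Of these 24, 20 had a change above 0 and 4 below, where 51.6% of all genes were below 0. On 5 arrays 8 were higher (33.3%) and 0 lower, beside 10.0% and 8.98% of all genes. Pfkp had the highest change of the list, 0.60 on 6 arrays (limma adjusted p = 0.116) and 0.53 on 5 (limma adjusted p = 0.00223). Egln3, an oxygen-sensing hydroxylase, differed by 0.39 and Slc16a3, a lactate exporter, by 0.46. Of 24 unfolded protein response genes 0 passed in limma on 6 arrays, with 6 at an unadjusted p below 0.05, and 6 were higher and 2 lower on 5 arrays. Mthfd2, a mitochondrial folate enzyme, differed by 0.45.

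Antioxidant genes gave 1 increase and 1 decrease among 26. Gsta4 rose as above, and Sod3, the secreted superoxide dismutase, read 9.13, 9.09, 9.04 and 9.02 against 7.98 and 8.04 and fell 2.08-fold (adjusted p = 0.00363). Abca1, the cholesterol exporter, read 8.46, 8.42, 8.49 and 8.50 against 7.39 and 7.35 and fell 2.14-fold, as the called member of 20 cholesterol and fatty acid genes. Of 12 adipogenic regulators Ppargc1a, a coactivator of mitochondrial genes, fell 2.56-fold, from 8.27 to 8.44 in vector to 7.05 and 6.95, and Cebpd fell 1.70-fold. Pparg itself differed by -0.35 (adjusted p = 0.232). Of 20 imprinted genes, which are expressed from 1 parental copy in at least some tissues, Dcn, Igf2, Plagl1 (1.42-fold) and Phlda2 (1.35-fold) fell. Of 17 germline genes 0 passed in limma on either set of arrays, and 0 had an unadjusted p below 0.05 on 6 arrays.

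The host RNA of a miRNA cluster was lower. Mir99ahg is a long noncoding RNA whose introns hold the precursors of miR-99a and let-7c, and these 3 genes were named after their values were seen. Mir99ahg read 7.80, 7.75, 7.75 and 7.82 in vector and 7.28 and 7.22 in DaxxB, and fell by 0.53 (SE 0.06, adjusted p = 0.0218). Mirlet7c-1 read 6.47, 5.77, 6.29 and 6.67 against 4.98 and 5.04, and Mir99a read 6.77, 6.01, 6.71 and 6.60 against 5.96 and 5.86. Neither passed on 6 arrays (adjusted p = 0.0762 and 0.337). On 5 arrays Mirlet7c-1 differed by -1.47 (adjusted p = 1.79e-05), the lowest of 272 measured miRNA genes, and Mir99a by -0.78 (adjusted p = 7.08e-05). Of those 272 genes limma called 0 on 6 arrays, and 34 higher and 18 lower on 5. Over all genes 1.39% were called on 6 arrays, and 10.0% were higher and 8.98% lower on 5. Mir125b-2, from the same host, read 4.15 and 4.16 in DaxxB and 4.21 to 4.71 in vector, near the level of the olfactory receptor genes. The DaxxB values of Mirlet7c-1 and Mir99a also lay under 6.111, the 95th percentile of the mean olfactory receptor signals. Mir100hg, the host of a related cluster, was also lower on 5 arrays (limma adjusted p = 0.00223) but not called on 6. Its members Mir125b-1 and Mirlet7a-2 were lower on 5 arrays and Mir100 was not called. These too were named after their values were seen. The arrays measure RNA from the precursor or host region, not the mature miRNA. Below are the mature sequences of let-7c and miR-99a from RefSeq (GRCm38.p6), shown to identify these 2 members. The seed, bases 2 to 8, is in capitals, and the 2 seeds differ.
let-7c-5p (chr16:77599672-77599693, + strand): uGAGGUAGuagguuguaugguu
miR-99a-5p (chr16:77598940-77598961, + strand): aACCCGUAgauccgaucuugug

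Small differences were unevenly spread over chromosomes. Genes were placed by a GRCm38.p6 table, and medians were taken over the 12887 genes above a signal of 6.111 and over the arrays without vector replicate 2. Chromosome 12 had the highest median, 0.11, with 0.12 in DaxxB replicate 1 and 0.10 in DaxxB replicate 2. Each of vector replicates 1, 3 and 4, set against the other 2, had medians from -0.015 to 0.019 there. On chromosome 12, 23.6% of 652 genes were called higher and 4.14% lower on 5 arrays, beside 9.98% and 9.0% of all placed genes. Chromosome 15 (17.4% higher, 6.42% lower) and chromosome 4 (15.9% and 5.03%) leaned the same way. Chromosome 3 (5.51% higher, 16.3% lower) and chromosome 8 (6.91% and 15.8%) leaned the other way. On 6 arrays calls were few: 5 higher and 5 lower on chromosome 12, 5 and 10 on chromosome 15, and 3 and 10 on chromosome 4. Chromosome 3 had 3 and 19, chromosome 8 had 4 and 14, and all placed genes 64 and 214. With all 6 arrays the median was 0.13 on chromosome 12 and -0.04 on chromosome 3.

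**Figure D5:**
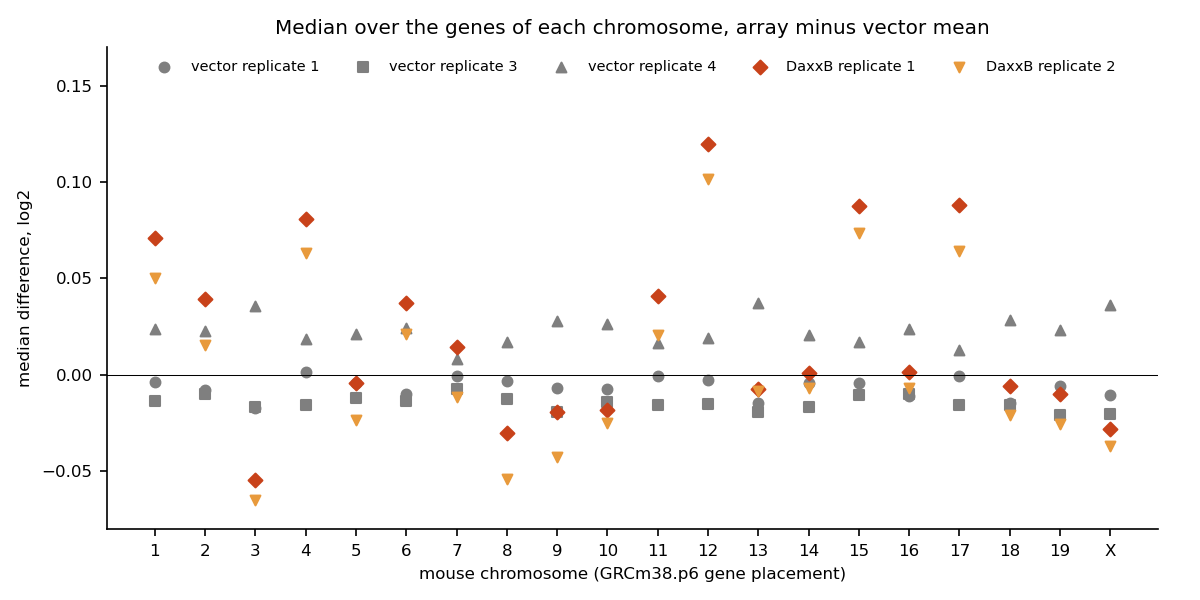
Median log2 difference over the genes of each chromosome above a signal of 6.111, for the 2 DaxxB arrays minus the mean of vector replicates 1, 3 and 4 (red and orange) and for each of those vector arrays minus the other 2 (grey). The DaxxB arrays lie at 0.12 and 0.10 on chromosome 12 and at -0.0545 and -0.0649 on chromosome 3. Both chromosomes place them outside the range of vector replicates 1, 3 and 4. Vector replicate 2, not drawn, had medians against the same mean of -0.0974 on chromosome 12 and -0.1101 on chromosome 3. Over all placed genes above the signal its median was -0.0922.

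The X chromosome divided into 2 stretches at a boundary set after its values were seen. Counts here take only the X genes above a signal of 6.111, unlike the shares of whole chromosomes above. From its start to Slc25a43, 34 of 79 genes were called higher on 5 arrays and 4 lower, with a median of 0.15. From Slc25a5 to its end, 12 of 298 were higher and 78 lower, with a median of -0.07. On 6 arrays 1 of the 79 was higher and 1 lower, and 2 of the 298 were higher and 12 lower. Of all placed genes, weak ones included, 9.98% were called higher and 9.00% lower on 5 arrays. Xist, the RNA that silences one X chromosome in female cells, was also named after its values were seen. It read 11.84, 11.72, 11.83 and 11.83 in vector and 10.72 and 10.69 in DaxxB, and fell by 1.10 (SE 0.07, 2.14-fold, adjusted p = 0.00356). The Y-linked genes Kdm5d, Uty and Eif2s3y read 4.02 to 5.32 in all 6 arrays. Whether the uneven spread over chromosomes and the Xist difference bear on the changes of single genes was not tested.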

How the data were processed

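Samples were grouped by title into vector (4 arrays) and DaxxB (2 arrays). The deposited values are log2 signals that the authors made with Affymetrix Expression Console and RMA, per the submitters' processing notes. RMA in general corrects background, quantile normalizes probe signals and summarises them per probe set, so a shift of most genes in 1 direction cannot be seen. The deposited values of vector replicate 2 still had a narrower distribution than the rest. The sources used here give no software version or genome build. No detection calls are used, so weak signals were kept. The number of arrays limits the precision.

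The table held 35556 probe sets. By the platform annotation 21789 had 1 gene symbol, 1621 several and 12146 none listed. Per gene the brightest probe set, by its mean signal across the 8 arrays, was kept, which left 19938 genes, of which 19856 matched the GRCm38.p6 gene table by gene number.

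DaxxB and vector were compared with limma 3.58.1 in R 4.3.3 (lmFit, eBayes, Benjamini-Hochberg over all genes) on the log2 values as deposited, without the other arrays. The fit was tested on simulated data. Alternatives were other normalizations, samples, probe set rules and estimates of spread, and the replicate number as a block.

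The members, gene lists, tests and naming rule were chosen with earlier results of these data known. Named genes were Daxx, the 15 highest and 15 lowest called genes whose groups did not overlap, up to 4 members per role of a list by adjusted p, and the 3 called genes whose DaxxB arrays lay furthest apart. Predicted genes, olfactory receptors and small RNAs were skipped, which passed over 1 higher and 2 lower called genes. Genes outside the rule are marked in the text. Of 895 list entries 828 were matched, and 67 were not analysed here.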

Additional observations from a re-analysis of the deposited data

Results flagged for a closer look

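Vector replicate 2 lay far from the other 3 vector arrays, by a Dixon test at the 95% level, in its interquartile range (2.79), its mean correlation with the other arrays (0.970) and its median olfactory receptor signal (5.21). Of 134 genes named with a change, 17 had vector replicate 2 as such an outlier among the vector arrays, and 3 had vector replicate 1; chance flags about 1 in 20 groups. Vector replicate 2 was the lowest vector array, nearer to DaxxB, in Adamts1 (9.23), Adamts5 (9.21), Fat4 (9.76), Fgf10 (7.57), Lifr (8.35), Osmr (10.87), Plxna2 (9.00), Rasl11a (10.63), Sema5a (8.84), Svep1 (8.86), Tbx15 (9.66), Thbs2 (9.36), Wnt5a (6.92) and Xist (11.72). It was the lowest in Plxdc2 (7.06) and Tnfaip2 (7.20), farther from DaxxB, and the highest in Vegfd (9.20). Vector replicate 1 was the outlier in Foxq1 (7.10), Hoxc10 (6.11) and Tagln (7.25). Of the 278 called genes, vector replicate 2 was the vector array closest to DaxxB in 137 and the farthest in 63.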

How the results depend on the processing

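The 278 called genes kept their sign under each alternative in which they were tested, 277 of them where weak signals were left out, but the counts moved. Leaving out 1 array gave 0 to 3786 genes (0 to 1995 higher, 0 to 1791 lower, 0 to 73 changed 2-fold). The replicate number as a block gave 0 genes (0 higher, 0 lower, 0 changed 2-fold). In that fit 788 of 19938 genes had an unadjusted p below 0.05. That share is less than 0.05, the share expected if no gene differed. Deviations from group means correlated at 0.069 for number 1 and 0.024 for number 2. With 2 DaxxB arrays, and vector replicate 2 within the vector mean, these values cannot tell whether the numbers pair the arrays. Quantile normalization again gave 615 genes (198 higher, 417 lower), scaling to a common median and spread 145 (29 and 116), the fit of 3 groups 536 (153 and 383), array weights 3987 (2124 and 1863) and an intensity trend 582 (166 and 416). With array weights 53.3% of called genes were higher. Chosen after seeing the data, the fit of 3 groups without vector replicate 2 gave 4083 genes (2182 higher, 1901 lower), that without vector replicate 2 and DaxxB replicate 1 gave 1748 (654 and 1094; 81 changed 2-fold), and that without vector replicate 2 and DaxxB replicate 2 gave 2177 (1105 and 1072). The causes were not tested, except that array weights gave vector replicate 2 a weight of 0.0516. Leaving out weak signals (322) and averaging probe sets (283) stayed within 1.5 times. The Daxx difference was 0.07 to 0.31 with 1 array left out, 0.25 with the block, and -0.0274 without vector replicate 2 and DaxxB replicate 1. Of 134 genes named with a change, the block ended the call of 97, the scaling of 39 and quantile normalization of 3; the mean of all probe sets changed no call. None of the 134 changed direction under these or with 1 array left out.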

Other observations

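Called genes lay side by side in some places. By the gene order of GRCm38.p6, 28 of the 278 called genes (10.1%) had a called gene directly next to them on either side; no share expected without such grouping was computed. The 14 adjacent pairs each moved in 1 direction, 13 lower and 1 higher. The lower pairs, named after their values were seen, included Plxna2 and Cd34 (-1.22 and -1.91), the aggrecanase pair Adamts1 and Adamts5 (-1.24 and -1.28), Hoxb6 and Hoxb5 (-0.59 and -0.60), Plag1, a growth-related zinc-finger gene, and Chchd7 (-1.26 and -0.85), and Evc and Evc2, 2 genes of the cilium base that share a promoter region (-0.68 and -0.45). The higher pair was Trp53i11 and Tspan18 (0.86 and 0.49).

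Cgas, the cytosolic DNA sensor, stood outside the lists and was named after its values were seen. It read 8.05, 7.85, 8.02 and 8.08 in vector and 6.68 and 6.85 in DaxxB, and fell 2.35-fold (limma adjusted p = 0.00455).

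The 2 DaxxB arrays lay furthest apart among called genes in Foxq1 (6.57 and 6.19), Fzd4 (6.63 and 6.26) and Cd59a (6.14 and 5.83), each below all vector arrays. Foxq1, a forkhead factor, fell 1.82-fold, and Cd59a, an inhibitor of complement lysis, fell 1.87-fold. Across all genes 0 were 2-fold apart between the DaxxB arrays, while 540 to 613 were between vector replicate 2 and another vector array.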
